A study of Mus musculus with 8 samples.

Results

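Of the 8 RNA-seq libraries of the study, the 4 labelled 16 hr and 32 hr bear on how gene expression changes late after mouse embryonic stem cells (ESCs) leave serum medium. The cells were E14, a feeder-independent ESC line of strain 129/Ola that was kept in fetal calf serum with LIF. They were moved at 0 hr to 2i, a serum-free medium with LIF, the MEK inhibitor PD0325901 and the GSK3 inhibitor CHIR99021, either alone (2i) or with 17 µM vitamin C (vitC), a cofactor of the TET enzymes. Each combination of time and treatment is 1 library from 1 cell line, so the comparison of 32 hr (2i and vitC) with 16 hr (2i and vitC) has 2 libraries a side, all on lane 7 of the sequencer. The other libraries, at 4 and 24 hr, ran on lane 8 and served here to sort earlier changes. Medium was refreshed daily, the hour of the change is not given in the sources used here, and serum libraries were not analysed here.

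ESCs in 2i approach a naive state in which signalling through MEK and ERK is blocked, beta-catenin is stabilised and LIF acts through STAT3. Blocking ERK is known to lower its ETS-factor targets within hours and to lower the de novo DNA methylation enzymes, whereas medium without serum is known to raise sterol and fatty acid synthesis. Genes whose levels turn after 16 hr can thus belong to programmes that are still unfolding, that have settled, or that turn back.

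The 4 libraries held 6969300 to 18434932 counts, with the vitC 16 hr library the shallowest. A gene at 5 CPM (counts scaled to a library's TMM-adjusted total) had a Wilson 95% confidence interval of 3.59 to 6.96 CPM in that library and of 4.08 to 6.13 CPM in the deepest, and these intervals cover counting error only. CPM does not correct for length, so that levels are compared between libraries and never between genes. Reads on Lars2 and 2 features that vary with it took 0.206% of the 2i 16 hr counts, 0.564% of 2i 32 hr, 7.11% of vitC 16 hr and 4.21% of vitC 32 hr, and their part in the results was examined by leaving them out. The 10 core ESC markers summed to 3048 (2i) and 2621 CPM (vitC) at 16 hr, against 2869 and 2724 CPM at 32 hr, and all were detected. None of them passed the test, and Pou5f1, the gene of OCT4, was at 310 and 293 CPM at 16 hr (2i and vitC) and at 338 and 346 CPM at 32 hr.

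Between 16 and 32 hr a small set of genes moved, and it moved in the same direction without and with vitC. Crabp1 and Crabp2, which encode retinoic acid binding proteins, and Lefty1, which encodes an inhibitor of Nodal, were among those that rose, whereas Wnt6, Cdx2, Nkx1-2 and Aldh1a2 were among those that fell. Of 14931 genes tested, 87 (0.583%) were called, with an adjusted p-value under 0.05 in edgeR's quasi-likelihood test, 50 of them rising (0.335%) and 37 falling (0.248%). At an unadjusted p-value under 0.05 there were 2129. The test takes its error from how far the treatments depart from a common time course over all 8 libraries, with 3 residual degrees of freedom, and not from replicate cultures. Each gene's spread is also drawn toward a trend over all genes, with 9.64 prior degrees of freedom beside these 3, so that much of the error is borrowed from other genes. The rises spanned log2 fold changes of 0.69 to 5.24 and the falls -0.72 to -2.74, with 33 rises and 26 falls of at least 1 on the log2 scale. In each of the 87 genes both 32 hr libraries lay on the same side of both 16 hr libraries, as they did in 40.8% of all genes tested. For a called gene this is largely fixed by the test, which takes disagreement between the treatments as its error.

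**Figure D1:**
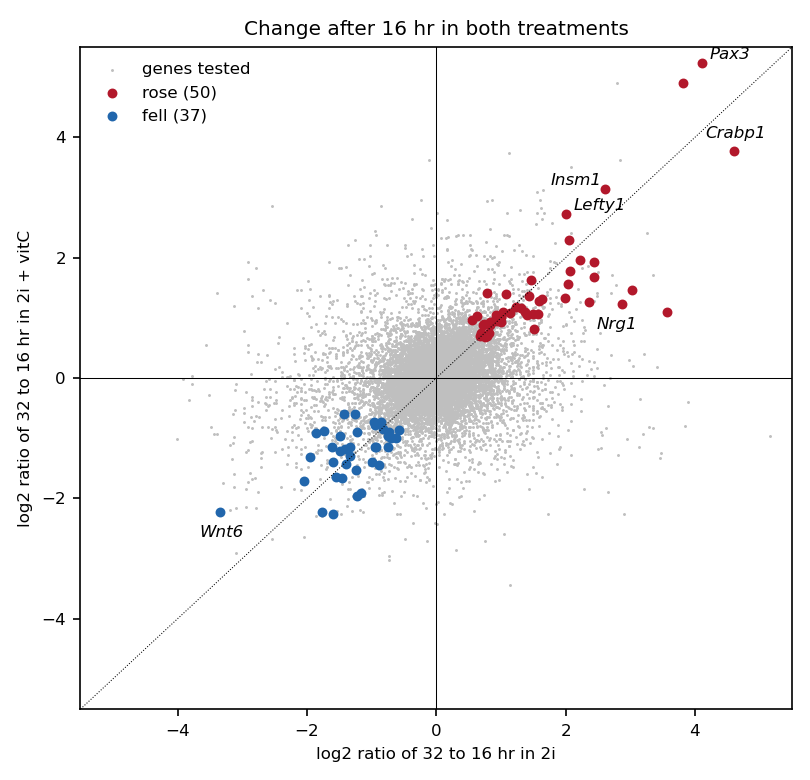
Log2 ratio of 32 to 16 hr in 2i (horizontal axis) and with vitC (vertical axis) for the 14931 genes tested, 1 point a gene, computed from CPM with a prior count of 2. The 50 genes that rose (red) are all in the upper right corner and the 37 that fell (blue) all in the lower left, and the dotted line marks equal ratios.

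Over all genes the median absolute log2 fold change was 0.24 between 16 and 32 hr, compared with 0.36 between 4 and 16 hr and 0.39 between 4 and 24 hr, and 3061 genes (20.5%) passed between 4 and 24 hr and 2448 (16.4%) between 4 and 16 hr. The median standard errors for 32 against 16 hr and for 24 against 4 hr were 0.22 and 0.22. The spans compared differ in length and lane. The 4 to 16 hr comparison crosses lanes, and there lane and time cannot be told apart.

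The count of late calls leaned on single libraries. Without the 2i 32 hr library 2 genes passed, Crabp1 and Lefty1, and without vitC 32 hr 3 passed, these and Nuak1, so that no other call held with 1 library at 32 hr. Without 2i 16 hr 12 genes passed, 11 of them among the 87, Crabp2, Nkx1-2, Itga8 and Slc5a5 included beside those 3. Without vitC 16 hr, the shallow library with the highest share of Lars2 reads, 123 passed, 84 rising and 39 falling, and 39 of the 87 were among them. In these fits the lone library at an hour was assumed to vary like the others. A fit to the 4 libraries of lane 7 alone called 238 genes, and all of the 87 were among them. Counts corrected for GC content and exon length gave 107 calls, with 48 rising and 59 falling, so that the share of rises was 44.9% in place of 57.5%. The 87 genes had the same direction as in the test above in every one of the 15 alternative settings that gave them a value.

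The largest rises among protein-coding genes with a mean of at least 5 CPM were led by Crabp1 (ENSMUSG00000032291), which encodes a protein that binds retinoic acid in the cytoplasm. Its level was 12.4 CPM in 2i (Wilson 95% confidence interval 10.9 to 14.1) and 12.3 with vitC (9.92 to 15.2) at 16 hr, and 307 CPM (298 to 316) and 170 CPM (163 to 177) at 32 hr. Both 32 hr libraries were far above both 16 hr libraries, and at 4 hr the gene had been at 11.6 and 7.99 CPM, so nearly all of its rise came after 16 hr. That is a log2 fold change of 4.25 (standard error, SE, 0.20, adjusted p = 4.6e-07, edgeR). The 24 hr libraries, on the other lane, lay between at 49.8 and 37.6 CPM.

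Of the 15 genes fixed as a retinoic acid response list, 3 rose and 1 fell between 16 and 32 hr, whereas 10 had risen and 1 had fallen between 4 and 24 hr, when 11.5% of all genes rose and 8.98% fell. The late shares of all genes were 0.335% and 0.248%. Crabp2, the other cytoplasmic binding protein, was at 52.4 (2i) and 55.8 CPM (vitC) at 16 hr and at 283 and 213 CPM at 32 hr (log2 fold change 2.19, SE 0.21, adjusted p = 0.00055, edgeR). Stra8, a gene induced by retinoic acid that is needed for entry into meiosis, went from 20.6 and 31.0 CPM to 64.1 and 77.2 CPM (log2 fold change 1.48, adjusted p = 0.0095, edgeR). The one member that fell, Aldh1a2, encodes an enzyme that makes retinoic acid from retinal. It had climbed from 9.61 and 6.20 CPM at 4 hr up to levels of 39.9 and 26.7 CPM at 16 hr, and was at 15.7 and 12 CPM at 32 hr (log2 fold change -1.25, SE 0.20, adjusted p = 0.019, edgeR). The binding proteins and the synthetic enzyme thus moved in opposite directions.

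The remaining members gave no call, and their levels pointed to no common direction. Meis1, a homeobox gene, had a log2 fold change of 1.12 (adjusted p = 0.061), the receptor gene Rarg -0.52 (0.13), and Cyp26a1, whose enzyme degrades retinoic acid, -1.10 (0.22), all from edgeR. Rarb, another receptor gene, and Stra6, which encodes a retinol transporter, had been called between 4 and 24 hr with log2 fold changes of 2.57 and 2.83, and had late values of 0.22 and 0.44. The list's median log2 fold change was 0.12 late, beside -0.0016 over all genes, and 1.59 early. Without the 2i 32 hr library Crabp2, Stra8 and Aldh1a2 lost their calls (adjusted p = 0.11, 0.34 and 0.46, edgeR), as they did without vitC 32 hr (0.052, 0.17 and 0.16), with the direction kept. Without 2i 16 hr those of Stra8 and Aldh1a2 were 0.11 and 0.15.

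**Figure D2:**
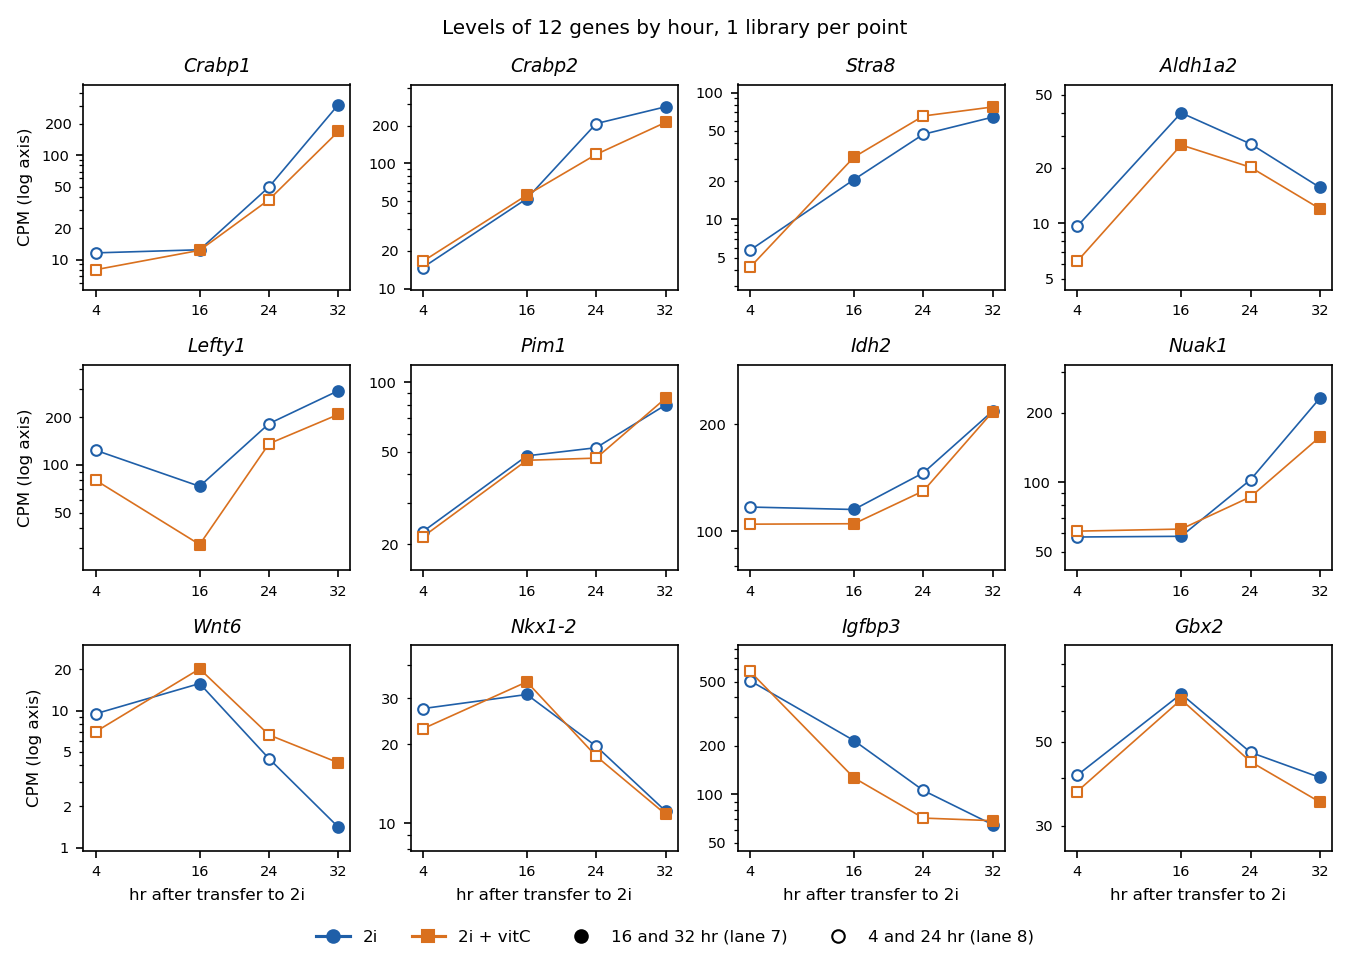
CPM on a log axis at 4, 16, 24 and 32 hr in 2i (blue circles) and with vitC (orange squares) for 12 of the named genes, 1 library a point, with lane 7 filled and lane 8 open. Crabp1, Nuak1 and Idh2 are nearly level up to 16 hr and then climb, Aldh1a2, Wnt6 and Gbx2 peak at 16 hr, and Igfbp3 declines from 4 hr on, while Pim1 climbs.

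In the Nodal pathway, in which Nodal signals through activin receptors and SMAD2 and SMAD3 and induces its own inhibitors, 2 of the 11 genes tested rose and none fell. The shares of all genes were 0.335% and 0.248%. Lefty1, a secreted inhibitor of Nodal and one of its targets, was at 73.2 CPM in 2i (69.5 to 77.2) and 31.5 with vitC (27.5 to 35.9) at 16 hr, and at 294 (285 to 303) and 208 CPM (200 to 216) at 32 hr. The fitted log2 change was 2.32 (SE 0.19, adjusted p = 0.00014, edgeR). The levels at 4 hr, 124 and 80.0 CPM, lay between those of 16 and 32 hr. They come from the other lane, so that a dip before the rise cannot be told apart from the lane.

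Other members did not reach the threshold. Lefty2, the sister gene of Lefty1, was at 16.3 and 4.47 CPM at 16 hr and at 27.8 and 22 CPM at 32 hr (log2 fold change 1.35, adjusted p = 0.060, edgeR). Nodal itself was at 94.0 and 56.1 CPM and then at 103 and 82.0 CPM (0.33, adjusted p = 0.51), and its co-receptor Tdgf1 had a log2 fold change of -0.13 (adjusted p = 0.81). Thus Lefty1 was called while Nodal, the receptors and the SMAD genes of the list were not, and the list's median was 0.31. Lefty1 had adjusted p-values of 0.021 without 2i 32 hr and 0.020 without vitC 32 hr (edgeR).

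Sema3d, Nrg1, Igfbp5 and Car8 were also among the largest rises. Sema3d, an axon guidance factor, went from 1.37 and 2.60 CPM to 12.3 and 7.42 CPM (log2 fold change 2.45, adjusted p = 0.039, edgeR). Nrg1, a ligand of ErbB receptors, went from 2.95 and 3.75 CPM to 22.6 and 9.01 CPM (2.23, adjusted p = 0.040). For both the increase was larger in 2i than with vitC. Igfbp5, an insulin-like growth factor binding protein, was at 2.05 CPM in 2i and 8.80 with vitC at 16 hr and at 26.2 and 18.9 CPM at 32 hr (2.39, adjusted p = 0.048), so the treatments were further apart at 16 hr than at 32 hr. Car8, a carbonic anhydrase relative, also belonged to the leading rises (2.20, adjusted p = 0.027). Of these 4, only Igfbp5 and Nrg1 passed without vitC 16 hr, and none without any 1 of the other 3 libraries (edgeR adjusted p from 0.072 to 0.51). Without 2i 32 hr the log2 fold changes of Sema3d, Nrg1 and Igfbp5 were 1.55, 1.38 and 1.46, and that of Igfbp5 was 1.5 without 2i 16 hr. With DESeq2 Igfbp5 had an adjusted p-value of 0.11.

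Ptn, Fgfbp3 and Tnc are called genes outside the rule for naming that were picked after their values were seen. Ptn, the growth factor pleiotrophin, went from 9.0 and 11.1 CPM to 47.1 and 26.9 CPM (log2 fold change 1.86, adjusted p = 0.025, edgeR). Fgfbp3, which binds FGFs outside the cell, went from 9.0 and 8.37 CPM to 37.4 and 25.1 CPM (1.84, adjusted p = 0.0038). Tnc, the matrix protein tenascin C, went from 15.5 and 13.1 CPM to 46.6 and 27.6 CPM (1.35, adjusted p = 0.027). All 3 had risen between 4 and 24 hr as well, and all 3 passed without vitC 16 hr and not when any other of the 4 libraries was left out.

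Nuak1, an AMPK-related kinase, changed from a higher level. It was at 58.3 and 62.6 CPM at 16 hr and at 231 and 157 CPM at 32 hr (log2 fold change 1.67, SE 0.17, adjusted p = 0.0011, edgeR), having been at 57.9 and 61.3 CPM at 4 hr. Without 2i 32 hr its adjusted p-value was 0.11 (edgeR). Pax3, a transcription factor of the neural crest and muscle lineages, is named after its values were seen, as its mean is under 5 CPM. It had 5 counts in 2i 16 hr and 0 in vitC 16 hr (3 counts would be 0.163 and 0.430 CPM), and 7.13 and 5.92 CPM at 32 hr. Its fitted log2 fold change of 5.24 (adjusted p = 0.012, edgeR) rests on these few reads at 16 hr, and it was 9.02 without 2i 16 hr (adjusted p = 0.10, edgeR).

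The falls were led by Wnt6, a WNT ligand, which was at 15.8 CPM in 2i (14.1 to 17.7) and 20.2 with vitC (17.1 to 23.8) at 16 hr, and at 1.41 (0.904 to 2.21) and 4.17 CPM (3.16 to 5.50) at 32 hr. The fitted log2 change was -2.74 (SE 0.39, adjusted p = 0.0095, edgeR), and at 4 hr the gene had been at 9.50 and 7.02 CPM, below its level at 16 hr. Cacna1b, a neuronal calcium channel subunit, fell from 12.8 and 14.6 CPM to 3.64 and 3.00 CPM (-2.02, adjusted p = 0.015). Itga8, an integrin subunit, fell from 53.8 and 44.4 CPM to 18.2 and 14.1 CPM (-1.61, adjusted p = 0.0038). For each of these the 32 hr libraries lay well under those of 16 hr.

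Other leading falls included Il33, an interleukin (log2 fold change -1.71), Nkx1-2, a homeobox gene of the caudal epiblast (-1.57), Slc5a5, the sodium iodide symporter (-1.57), and Foxi3, a forkhead gene (-1.44), at adjusted p = 0.027, 0.0045, 0.022 and 0.034 (edgeR). Car4, a membrane-bound carbonic anhydrase, was at 11.9 and 14.6 CPM at 16 hr and at 4.98 and 4.92 CPM at 32 hr (-1.41, adjusted p = 0.034). Nkx1-2 was at 31.0 and 34.6 CPM at 16 hr and at 11.1 and 10.8 CPM at 32 hr. Igfbp3 fell from 216 and 126 CPM to 64.7 and 68.5 CPM (-1.33, adjusted p = 0.022), in a decline that began at 508 and 581 CPM at 4 hr, whereas Igfbp4 rose from 28.8 and 31.7 CPM to 58.2 and 61.0 CPM (0.98, adjusted p = 0.027). Together with Igfbp5, members of this family of binding proteins therefore moved in both directions. Without 2i 32 hr the adjusted p-values were 0.29 for Wnt6 and 0.27 for Nkx1-2, and without vitC 32 hr 0.061 and 0.15 (edgeR). Wnt6 had 0.067 without 2i 16 hr, and Slc5a5 and Foxi3 had 0.074 and 0.064 without vitC 16 hr.

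Of 18 Wnt and beta-catenin target genes, 1 fell and none rose, beside 0.248% and 0.335% of all genes. Cdx2, a caudal and trophoblast homeobox gene, was at 4.79 and 3.90 CPM at 16 hr and at 1.04 and 1.08 CPM at 32 hr (log2 fold change -2.03, SE 0.40, adjusted p = 0.046, edgeR). At an unadjusted p-value under 0.05, 8 of the 18 were lower and 1 was higher, beside 6.93% and 7.33% of all genes, and 11 were lower in both treatments, beside 29.8% of all genes. Those with unadjusted support included Sp5, a direct target (58.1 and 59.2 CPM, then 31.6 and 35.9 CPM, adjusted p = 0.051), Ccnd1, Lef1 and Axin2, whose log2 fold changes were -0.80, -0.66, -0.90 and -0.45. The list's median was -0.33. Cdx1, called between 4 and 24 hr with a log2 fold change of 2.67, had a late value of -0.23 (adjusted p = 0.64). Cdx2 had adjusted p-values of 0.48 and 0.22 without the 2i or the vitC 32 hr library, and of 0.27 and 0.064 without the 2i or the vitC 16 hr library (edgeR).

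The list of ATF4 and serine synthesis genes had 2 rises, beside 0.335% of all genes, and the estimates of its other members lay on the same side of 0. ATF4 is a transcription factor whose translation rises when amino acids are short or the endoplasmic reticulum is stressed, and which turns on genes of amino acid synthesis and import. Of its members 2 rose, Ddit3, which encodes the stress factor CHOP, from 10.0 and 13.7 CPM to 28.8 and 24.2 CPM (log2 fold change 1.18, SE 0.23, adjusted p = 0.045, edgeR), and Stc2, a secreted stress-responsive glycoprotein, from 24.0 and 14.4 CPM to 56.5 and 32.9 CPM (1.20, SE 0.23, adjusted p = 0.043). At 4 hr, on the other lane, Ddit3 had been at 21 and 17.6 CPM, above its level at 16 hr. Both lost their call without either 32 hr library (adjusted p = 0.49 and 0.22 for Ddit3, 0.51 and 0.16 for Stc2), Ddit3 also without 2i 16 hr (0.35), and Stc2 without either 16 hr library (0.13 without 2i and 0.11 without vitC).

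All 24 members had a positive log2 fold change, from 0.058 to 1.31 with a median of 0.54. In both treatments 22 of them were higher at 32 hr, beside 30.2% of all genes, and 18 had an unadjusted p-value under 0.05 in this direction, beside 7.33%. These genes share regulation, so that they are not independent, and only the 2 called members passed the adjusted threshold. Asns, which makes asparagine, was at 794 and 614 CPM at 16 hr and at 1148 and 1004 CPM at 32 hr (0.62, adjusted p = 0.075). Atf4 itself was at 432 and 372 CPM and then at 789 and 501 CPM (0.67, adjusted p = 0.099), and Nupr1, a stress-induced chromatin protein, was at 12.2 and 14.9 CPM and then at 39.3 and 23.7 CPM (1.20, adjusted p = 0.059). The serine synthesis enzymes Phgdh, Psat1 and Psph had values of 0.71, 0.24 and 0.37. Between 4 and 24 hr the same list had been divided, with 10 rises, 3 falls and a median of 0.14. Over all genes 11.5% rose and 8.98% fell in that span.

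**Figure D3:**
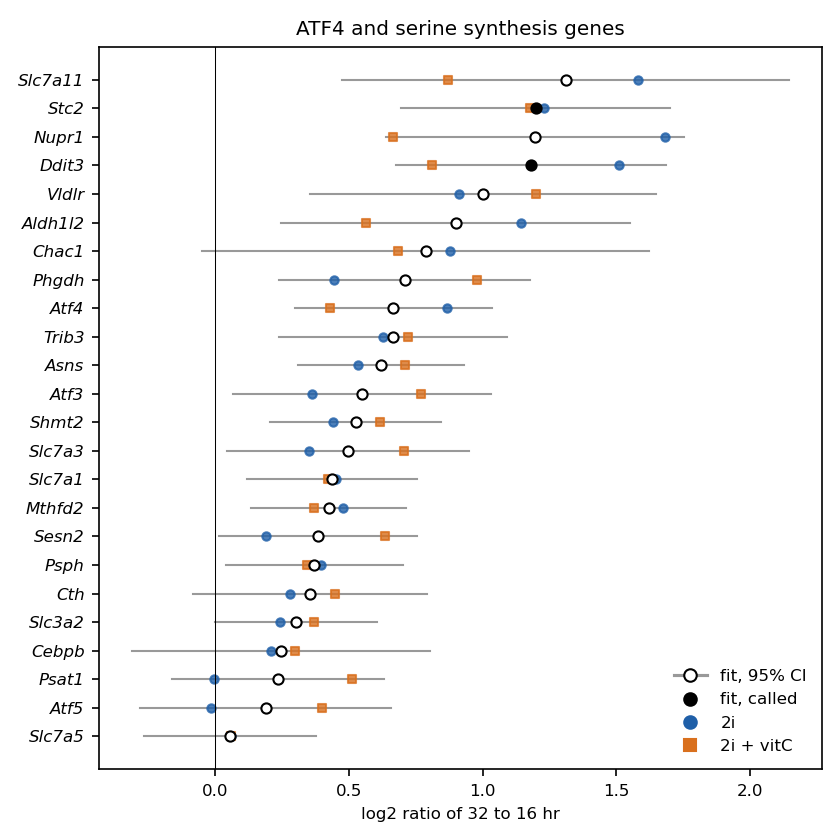
Log2 ratio of 32 to 16 hr for the 24 ATF4 and serine synthesis genes in 2i (blue) and with vitC (orange), with the edgeR estimate (black outline, filled where called) and its 95% confidence interval (grey). All estimates are above 0, and the filled points are Stc2 and Ddit3.

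ATF4 binds, with a C/EBP partner, to elements that contain TGATGNAA. To show where such letters occur, the motif was searched for on both strands of RefSeq promoter windows (GRCm38.p6, 250 bases before to 50 after the start), a choice made after the values were seen. Of the 20 members with a promoter in that set, 7 (35%) held it, compared with 4.51% of all 27025 genes. The list was drawn up around ATF4, so that a raised share is built into the choice of genes. It therefore carries no information on the late changes. The match in Trib3 lies downstream of the start and is not printed, and neither is the second of the matches in Slc7a11. The windows of the other 6 members show the motif in capitals, read 5′ to 3′ on the strand of the gene and in either orientation of the motif.
Asns, chr6:7693211-7693246, minus strand: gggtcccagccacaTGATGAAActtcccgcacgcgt
Atf3, chr1:191183422-191183457, minus strand: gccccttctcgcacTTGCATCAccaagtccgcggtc
Chac1, chr2:119351035-119351070, plus strand: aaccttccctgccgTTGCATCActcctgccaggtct
Nupr1, chr7:126625559-126625594, minus strand: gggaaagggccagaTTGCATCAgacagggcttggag
Slc7a11, chr3:50443658-50443693, minus strand: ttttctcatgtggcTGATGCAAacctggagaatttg
Vldlr, chr19:27216806-27216841, plus strand: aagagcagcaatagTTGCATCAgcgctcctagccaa
A match is a description of letters and not a shown binding site.

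Among the 58 called genes with a promoter in the same set, 6 (10.3%) held the motif, namely Tubb3, Crabp1, Chchd10, Serpinf1, Jdp2 and Pck2. Apart from Tubb3, all of them rose, beside 57.5% of all 87 calls, and 6 genes are too few to read a direction from. Whether ATF4 has a part in these rises was not tested. Jdp2, an AP-1 family repressor, went from 10.8 and 8.08 CPM to 29.4 and 20.9 CPM (log2 fold change 1.40, adjusted p = 0.031, edgeR), and Pck2, the mitochondrial form of phosphoenolpyruvate carboxykinase, from 64.2 and 47.0 CPM to 94.2 and 91.7 CPM (0.75, adjusted p = 0.046). Chchd10, a mitochondrial protein, went from 195 and 180 CPM to 336 and 292 CPM (0.75, adjusted p = 0.038), and its window holds the second copy in lower case. None of the 3 is on the list above, and none passed when any 1 of the 4 libraries was left out (edgeR adjusted p from 0.079 to 0.49). Their windows, in the same notation, were as follows, and those of Tubb3, Crabp1 and Serpinf1 are not printed.
Jdp2, chr12:85599369-85599404, plus strand: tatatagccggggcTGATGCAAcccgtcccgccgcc
Pck2, chr14:55540149-55540184, plus strand: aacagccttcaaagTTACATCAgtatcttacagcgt
Chchd10, chr10:75933031-75933066, plus strand: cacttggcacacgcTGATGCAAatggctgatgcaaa

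To ask which earlier changes went on, stopped or turned back, the 3061 genes called between 4 and 24 hr on lane 8 were sorted by 32 against 16 hr on lane 7, since these comparisons share no library. Of these, 57 (1.86%) continued, that is, they were called late in the same direction, 34 up and 23 down. Another 4 (0.131%) reversed. A gene was counted as levelled where it had no late call and the 95% confidence interval of its late change lay within 1.5-fold in either direction, and 1197 (39.1%) were. The other 1803 (58.9%) were undecided. Of these, 1192 had an interval that included 0 and reached past that band, and 611 had one that excluded 0 without passing the adjusted threshold. Seen from the late side, 57 of the 87 calls (65.5%) continued an earlier change and 26 (29.9%) had no earlier call. Of all genes 20.5% were called between 4 and 24 hr in either direction. Both comparisons take their spread from the same fit, so that a gene of small fitted spread is more easily called in both. The windows overlap between 16 and 24 hr, so that a gene that only moves in that span counts as continued.

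Crabp1, Lefty1, Crabp2 and Nuak1 were among the 5 continuing genes with the smallest p-values. Between 4 and 16 hr, a comparison that crosses lanes, only Crabp2 of these had been called as a rise (log2 fold change 1.79). Crabp1 and Nuak1 had no call there (0.32 and 0.015), and Lefty1 had been called as a fall (-1.0). The 4 genes that reversed were Aldh1a2, Fgfr1 and Cyp1b1, which were up early and fell late, and Cirbp, which was down early and rose late. Fgfr1, an FGF receptor, was at 107 and 170 CPM at 16 hr and at 63.9 and 77.0 CPM at 32 hr (log2 fold change -0.94, adjusted p = 0.034, edgeR). Cyp1b1, a cytochrome P450 that oxidises retinoids and steroids, was at 68.4 and 86.6 CPM and then at 42.1 and 43.5 CPM (-0.84, adjusted p = 0.027). Cirbp, a cold-inducible RNA-binding protein, was at 28.2 and 16.6 CPM and then at 48.7 and 44.7 CPM (1.06, adjusted p = 0.045). All of them remained closer to their 4 hr level at 32 hr than at 16 hr, when Cirbp, for example, had been down from 83.3 and 94.4 CPM. Without vitC 16 hr the number of reversed genes was 7, and Cirbp, Fgfr1 and Cyp1b1 had adjusted p-values of 0.12, 0.092 and 0.067 (edgeR). Without any 1 of the other 3 libraries it was 0.

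**Figure D4:**
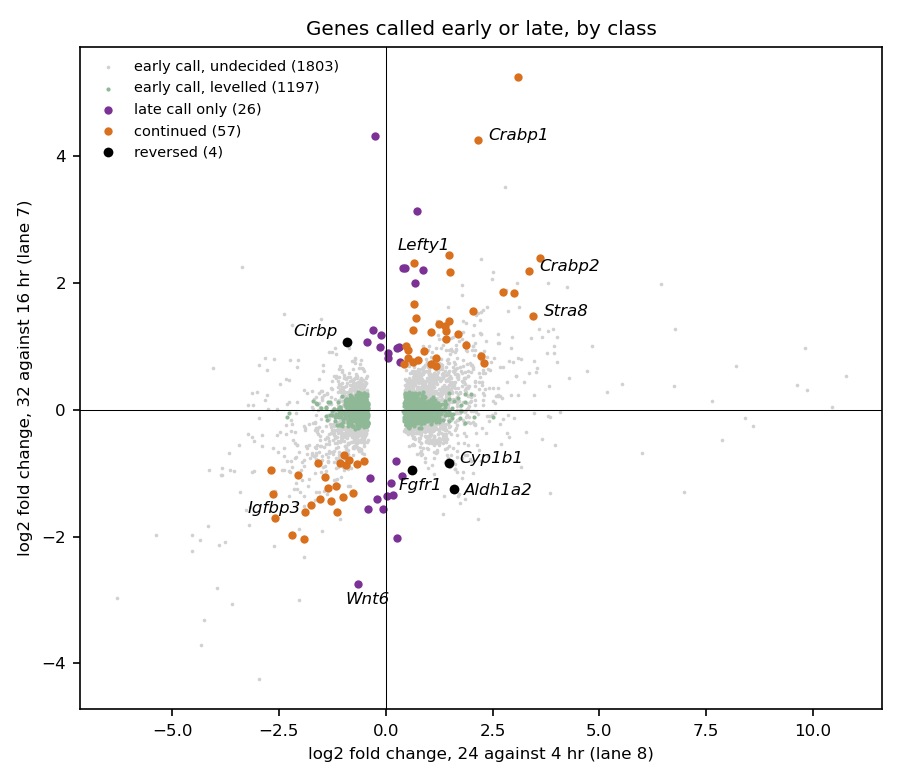
Log2 fold change of 24 against 4 hr (horizontal axis, lane 8) and of 32 against 16 hr (vertical axis, lane 7) for the genes called in either, coloured by class with the number of genes in brackets. The 57 continuing genes lie in the lower left and upper right, the 4 reversed genes in the opposite corners, and the 1197 levelled genes in a band around 0 on the vertical axis.

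Sorting the 2448 genes called between 4 and 16 hr gave 27 that continued (1.10%), 13 that reversed (0.531%), 997 that levelled (40.7%) and 1411 undecided (57.6%). This sorting uses the 16 hr libraries on both sides, so that a chance deviation at 16 hr counts as a reversal, and it crosses lanes. Lefty1 and Sox21, an SRY-box transcription factor, reversed in it, with log2 fold changes of -1.0 and -1.41 between 4 and 16 hr and of 2.32 and 2.24 thereafter. Map2, Gbx2, Slc5a5 and Cacna1b were up at 16 hr and then fell.

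The 24 hr libraries gave a further view of the late calls, on the other lane and outside the contrast itself, although they contributed to the fitted spread. Of the 50 rising genes, 48 were higher at 24 than at 16 hr in both treatments (27.9% of all genes were), and 48 were higher at 32 than at 24 hr in both (30.0%). Of the 37 falling genes, 36 were lower at 24 than at 16 hr (27.6%) and 32 lower at 32 than at 24 hr (29.1%). The first step of each pair shares the 16 hr libraries with the call and the second the 32 hr libraries, so that both lean in the direction of the call. Median log2 steps for the rises were 0.62 in 2i and 0.59 with vitC from 16 to 24 hr, and 0.63 and 0.56 from 24 to 32 hr.

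Among genes with no earlier call, Idh2, the mitochondrial isocitrate dehydrogenase, was at 115 and 105 CPM at 16 hr, close to its 117 and 105 CPM at 4 hr, and at 218 and 217 CPM at 32 hr (log2 fold change 0.99, SE 0.13, adjusted p = 0.0075, edgeR). Nkx1-2, Wnt6, Cacna1b and Slc5a5, described above, complete the 5 of smallest p-value in this class. For Idh2 the adjusted p-value was 0.25 without 2i 32 hr, 0.16 without vitC 32 hr and 0.062 without 2i 16 hr (edgeR), and the log2 fold change was 1.06, 0.92 and 0.99.

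Most of the lipid synthesis genes that had risen early levelled after 16 hr. Of 24 cholesterol biosynthesis genes, 16 had risen between 4 and 24 hr, and of these 13 levelled, 3 were undecided and none was called late. Over all genes 11.5% rose early, 32.5% of those levelled, and 0.583% were called late, so that few or no late calls would be found in a list of this size at the overall rate. Cyp51, a sterol demethylase, was at 131 and 128 CPM at 4 hr, 350 and 276 CPM at 16 hr and 342 and 287 CPM at 32 hr, with a late log2 fold change of 0.01 (95% confidence interval -0.29 to 0.31). The list's median was 0.81 early and -0.13 late, and 5 members were lower at an unadjusted p-value under 0.05, beside 6.93% of all genes. Of 17 fatty acid synthesis genes, 12 had risen early, 8 of them levelled, 4 were undecided and none was called late (median -0.089). Scd2, a fatty acid desaturase, was among the undecided, at 3631 and 3165 CPM and then at 2262 and 2444 CPM (-0.53, adjusted p = 0.13).

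Groups that had fallen early also levelled in part. Of 27 ribosome biogenesis genes 14 had fallen between 4 and 24 hr, of which 10 levelled, and of 19 SRF and YAP target genes, many of which encode actin regulators, 14 had fallen, of which 8 levelled. Of all genes 8.98% fell early, and 47.6% of those levelled. Neither list had a late call, beside 0.583% of all genes. Their early medians were -0.45 and -0.57 and their late medians -0.0048 and 0.023. Levelled is a statement about the width of the interval, and a further change of under 1.5-fold would not be seen.

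The LIF-STAT3 list of 14 genes had 1 rise and 1 fall, beside 0.335% and 0.248% of all genes. Pim1, a kinase gene induced by STAT3, rose from 48.1 and 46.0 CPM to 79.7 and 85.2 CPM (log2 fold change 0.81, SE 0.15, adjusted p = 0.034, edgeR), continuing a rise from 22.7 and 21.5 CPM at 4 hr. Gbx2, a homeobox gene that LIF also induces, fell from 66.7 and 64.5 CPM to 40.2 and 34.6 CPM (-0.81, adjusted p = 0.035), back to the range of its 4 hr levels of 40.7 and 36.9 CPM. Both lost their call when any 1 of the 4 libraries was left out, with adjusted p-values of 0.43 and 0.47 without 2i 32 hr and of 0.076 and 0.079 without vitC 16 hr (edgeR). Socs3, the feedback inhibitor, was at 107 and 136 CPM and then at 120 and 128 CPM (0.04, adjusted p = 0.92).

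None of 18 naive pluripotency genes was called late. Over all genes 0.583% were, so that few or no late calls would be found in this list at that rate. Between 4 and 24 hr 9 of the 18 had risen and 1 had fallen, beside 11.5% and 8.98% of all genes. Tfcp2l1, a naive-state transcription factor, was at 591 and 765 CPM at 16 hr and at 605 and 588 CPM at 32 hr, and Nanog at 570 and 437 CPM and then at 405 and 348 CPM (log2 fold change -0.42, adjusted p = 0.23, edgeR). The smallest p-value was that of Manba, a lysosomal mannosidase counted on this list (0.85, adjusted p = 0.069). The list's median was 0.14 late and 0.54 early. Among 17 ERK feedback and ETS target genes none was called late. Etv4, an ETS factor called between 4 and 24 hr with a log2 fold change of -5.38, was at 4.26 and 2.60 CPM at 16 hr and at 1.34 and 0.417 CPM at 32 hr (-1.97, adjusted p = 0.060).

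The transcripts of the DNA methylation machinery had no late call among 9 genes tested (edgeR, with 3 at an unadjusted p-value under 0.05). For all genes these shares were 0.583% and 14.3%, so that few or no late calls would be found among 9 genes at the first rate. These libraries measure RNA only. The paper followed proteins as well, and reports less UHRF1 protein in 2i while Uhrf1 mRNA did not change. Dnmt1, the maintenance methyltransferase, was at 328 and 409 CPM at 16 hr and at 404 and 459 CPM at 32 hr (log2 fold change 0.23, 95% confidence interval from the fit including 0, adjusted p = 0.51). Its partner Uhrf1 was at 401 and 406 CPM and then at 417 and 463 CPM (0.13, adjusted p = 0.71). Dnmt3b, a de novo methyltransferase, was at 97.4 and 85.7 CPM and then at 66.4 and 58.6 CPM (-0.55, -0.86 to -0.24, adjusted p = 0.11), and its cofactor Dnmt3l at 20.3 and 11 CPM and then at 11.3 and 4.34 CPM (-1.04, -1.64 to -0.43, adjusted p = 0.12). Both had fallen steeply between 4 and 24 hr, with log2 fold changes of -2.08 and -3.86, and both were lower at 32 than at 16 hr in both treatments without passing the test. Dnmt3a had a late value of 0.20 (adjusted p = 0.56).

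Of the TET enzymes, which oxidise 5-methylcytosine, Tet1 was at 264 and 418 CPM at 16 hr and at 214 and 262 CPM at 32 hr (log2 fold change -0.48, -0.82 to -0.14, adjusted p = 0.19, edgeR), after a rise of 1.20 between 4 and 24 hr. Tet2 was at 126 and 185 CPM and then at 158 and 146 CPM, higher in 2i and lower with vitC. Tet3 was at 8.31 and 23.8 CPM and then at 10.3 and 16.9 CPM, likewise with opposite signs. Neither was called (adjusted p = 1.0 and 0.88), and Tdg, a glycosylase that removes oxidised bases, had a value of 0.27 (adjusted p = 0.74).

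Whether the late change differed between the treatments was tested by a further term in the model, with 2 residual degrees of freedom, chosen after seeing the data. No gene passed in edgeR (lowest adjusted p = 0.44). Of the 14931 genes tested, 740 had an unadjusted p-value under 0.05, 9 of them among the 87. These included Crabp1, which had log2 ratios of 4.61 (2i) and 3.77 (vitC), and Lefty1, with 2.00 and 2.72. Over the 50 rising genes log2 ratios had medians of 1.35 in 2i and 1.09 with vitC, and over the 37 falling genes -1.26 and -1.15. Of the 50 rises 27 were larger in 2i, and of the 37 falls 18. Over all genes 47.9% had a higher log2 ratio in 2i than with vitC, and 52.1% had a lower one. With 1 library per combination a modest effect of vitC on the late changes could not be detected.

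Markers of other cell types were measured in the same libraries, since in bulk RNA more cells of a type and more RNA per cell cannot be told apart. Their late calls stand beside 0.335% of all genes that rose and 0.248% that fell. Neural markers had 3 of 9 genes above the filter, of which 2 fell, Map2 from 42.6 and 51.4 CPM to 13.7 and 23.2 CPM (log2 fold change -1.36, adjusted p = 0.027, edgeR) and Tubb3 from 99.6 and 97.7 CPM to 51.1 and 58.8 CPM (-0.84, adjusted p = 0.046), both genes of the neuronal cytoskeleton. Without 2i 32 hr their adjusted p-values were 0.47 and 0.50, without vitC 32 hr 0.11 and 0.17, without 2i 16 hr 0.11 and 0.15, and without vitC 16 hr 0.054 and 0.099 (edgeR). Nes, the remaining gene tested, had a log2 fold change of 0.23, was not called and was not higher in both treatments. Olig2 had no counts, and the list summed to 279 and 313 CPM at 16 hr and to 270 and 233 CPM at 32 hr, led by Nes.

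Of 16 primitive endoderm genes tested 1 rose, Lama1, a laminin chain, from 49.8 and 63.6 CPM to 95.9 and 123 CPM (log2 fold change 0.95, SE 0.14, adjusted p = 0.010, edgeR). The list summed to 1368 and 1541 CPM at 16 hr and to 1309 and 1345 CPM at 32 hr, and Sox7 had at most 3 counts in any of the 4 libraries. Without 2i 32 hr the adjusted p-value of Lama1 was 0.27, without vitC 32 hr 0.16 and without 2i 16 hr 0.10 (edgeR). Of 11 trophoblast genes Cdx2 fell and 4 more were lower at an unadjusted p-value under 0.05, beside 6.93% of all genes. Among these 4 were the keratins Krt8, Krt18 and Krt19 (-0.53, -0.36 and -0.61). This list summed to 1097 and 1075 CPM at 16 hr and to 897 and 738 CPM at 32 hr. Mesendoderm markers were low, at 26.7 and 22.2 CPM in sum at 16 hr and 19.7 and 18.9 CPM at 32 hr, with no count for Evx1. Fibroblast markers summed to 1073 and 1569 CPM and then to 1191 and 1481 CPM, led by Fn1 and Vim. Mesendoderm and fibroblast lists had no late call, and of all genes 0.335% rose late and 0.248% fell. The part of such cells in the late changes was not tested.

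**Figure D5:**
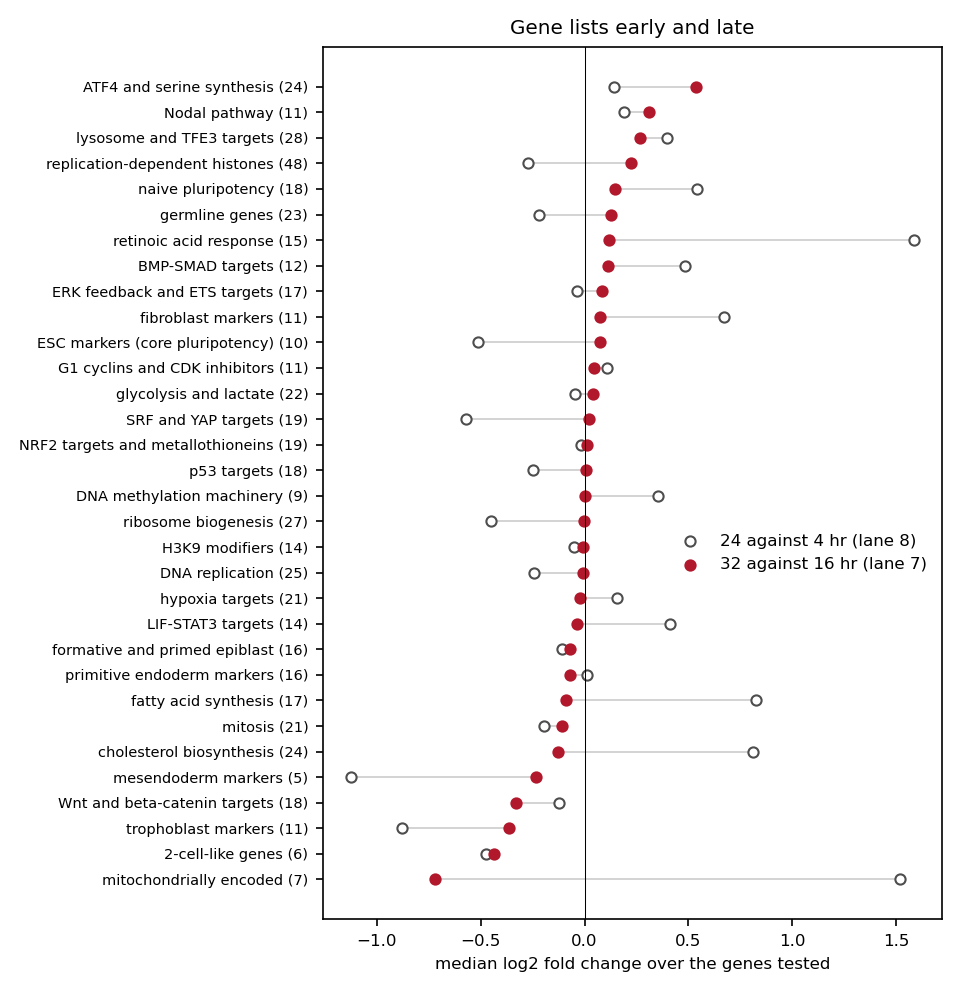
Median log2 fold change over the genes tested in each list with at least 5 such genes (number in brackets) for 24 against 4 hr (open) and 32 against 16 hr (filled), with a grey line joining them. Most late medians lie close to 0, whereas those of the ATF4 and serine synthesis genes and the mitochondrially encoded genes are 0.54 and -0.72.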

How the data were processed

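RNA was depleted of ribosomal RNA, prepared with TruSeq reagents and sequenced as single 50-base reads. Per the labels, reads were aligned with GSNAP, and the authors deposited raw HTSeq counts per Ensembl gene without normalization. Their processing notes name NCBIM37 and mm9, and the annotation release and strand setting are not given in the sources used here. Lanes were read from the names of the deposited tables. Of 37263 identifiers 32604 were named through GENCODE M21. No row named no gene, and no 2 libraries were identical. Inhibitor concentrations, 1 and 3 µM in the paper, are in mM in the labels.

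Counts were analysed with edgeR 4.0.16 in R 4.3.3 (TMM, quasi-likelihood test, treatment plus time over all 8 libraries, Benjamini-Hochberg adjustment, threshold 0.05) on the 14931 genes that reached 1 CPM in 2 or more libraries. Log2 ratios used a prior count of 2. On simulated counts for 32 against 16 hr over 14931 genes, 75% of 100 genes changed 2-fold and 100% of 100 changed 4-fold were recovered, with 11 false calls. These rates describe the simulated counts only, and whether the real libraries reach them was not tested. The real late calls leaned on single libraries, as described above, so that the rates do not vouch for them. No source says that libraries came from separate cultures. The comparison, gene lists and tests were chosen with earlier results of these data known.

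Named were the 8 protein-coding genes of largest rise and of largest fall whose mean reached 5 CPM and whose sign did not differ between treatments, called list members (at most 4 a list), the 5 of smallest p-value in each class, and the DNA methylation genes. Some genes under this rule are not reported here. Alternatives were DESeq2 1.42.0, other scalings, filters and terms, thinning, and omission of each library.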

Additional observations from a re-analysis of the deposited data

How the results depend on the processing

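The late calls (87) numbered 239 with DESeq2, of which 86 were shared, 238 with the 4 libraries of lane 7 alone, 589 without a filter on low counts, 11 without the treatment term, 57 after thinning to the smallest library, and 2 to 123 when 1 of the 4 libraries was left out. With upper-quartile factors (82), DESeq2's size factors (95), a filter on all 4 libraries (73), without Lars2 and its related features (88), with their share as a covariate (114) and with the GC and length correction (107) they were within 1.5 times. Of the genes called from 4 to 24 hr, those that continued (57) were 123 with DESeq2, 226 without a filter, 8 without the treatment term, 0 with the Lars2 covariate, 37 after thinning, and 2 to 58 with 1 library left out. Those that reversed (4) were 17, 81, 0 and 0 in the first 4 of these settings and 0 to 7 with 1 library left out, and those that levelled (1197) were 653 without the treatment term, 0 with the covariate and 399 to 822 with 1 library left out. Of the genes called from 4 to 16 hr, those that continued (27) were 57 with DESeq2, 121 without a filter, 2 without the treatment term, 4 with the covariate, 14 after thinning and 0 to 18 with 1 library left out. Those that reversed (13) were 38, 131, 0, 3 and 8 in the same settings and 1 to 41 with 1 library left out, and those that levelled (997) were 490 without the treatment term, 31 with the covariate and 300 to 340 with 1 library left out. With the covariate no early calls were left to sort from 24 against 4 hr, since it overlaps with early time. The causes of the other shifts were not tested. By replicate number, no paired analysis was possible because each combination of time and treatment has 1 library. The hours are matched within each treatment by the treatment term, in the test reported and in that of lane 7 alone. Of the values of named genes under these settings, 451 kept their direction and side of the threshold, 135 lost the call, 3 gained it and 11 changed sign, all for Tet2 and Tet3, which were not called in any of them. The log2 fold change of Tet2 (0.0017) was -0.0060 with lane 7 alone, -0.0016 with DESeq2, -0.0014 with its size factors, -0.028 without the treatment term, -0.0035 without the Lars2 features, -0.0016 with the covariate and -0.26 to 0.26 with 1 library left out. That of Tet3 (-0.11) was 0.027 after thinning and -0.49 to 0.31 with 1 library left out.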

Other observations

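Groups outside the comparisons above gave few late calls, as did all genes (0.583%), and are listed as values. The 28 lysosome and TFE3 target genes had no call (edgeR), but 25 had a positive log2 fold change and 20 were higher in both treatments, with a median of 0.27 and 8 higher at an unadjusted p-value under 0.05. Over all genes these shares were 49.8%, 30.2% and 7.33%. The first of them by p-value was Hexa, a hexosaminidase subunit, at 98.6 and 83.4 CPM at 16 hr (2i and vitC) and at 143 and 130 CPM at 32 hr (log2 fold change 0.58, adjusted p = 0.088, edgeR). Of 48 replication-dependent histone genes, whose copies can share reads, 28 were higher in both treatments and none was called, with a median of 0.22 and 9 higher at an unadjusted p-value under 0.05 (30.2% and 7.33% of all genes). Hist1h1c, a linker histone, was at 349 and 342 CPM and then at 662 and 531 CPM (0.77, adjusted p = 0.052). Of 22 genes of glycolysis and lactate metabolism 5 had unadjusted support for a higher level, beside 7.33% of all genes, led by Ldhb (0.73, adjusted p = 0.052) and Pfkp (0.72, adjusted p = 0.054).

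Of 23 germline genes tested none was called (5 at an unadjusted p-value under 0.05, all higher, beside 7.33% of all genes). Dazl, a germ cell RNA-binding protein, was at 15.2 and 26.4 CPM at 16 hr and at 36.5 and 73.7 CPM at 32 hr (log2 fold change 1.38, standard error 0.32, adjusted p = 0.076, edgeR). The 7 mitochondrially encoded genes above the filter had a median log2 ratio of -0.17 in 2i and -1.28 with vitC, and mt-Cytb was at 195 and 672 CPM at 16 hr and at 174 and 249 CPM at 32 hr, so that the vitC 16 hr library stood apart. That library also had the highest share of Lars2 reads, 7.11%, and the part of this in the mitochondrial values was not tested. The lists of formative and primed epiblast genes (16 tested), BMP-SMAD targets (12), hypoxia targets (21), p53 targets (18), NRF2 targets and metallothioneins (19), DNA replication (25), mitosis (21), G1 cyclins and CDK inhibitors (11), H3K9 modifiers (14) and 2-cell-like genes (6) had no late call in edgeR, with medians of -0.072, 0.11, -0.021, 0.0088, 0.0098, -0.0071, -0.11, 0.047, -0.0067 and -0.44. At an unadjusted p-value under 0.05 they had 6, 4, 2, 3, 9, 4, 0, 4, 2 and 0 genes, beside 14.3% of all genes in either direction.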
